A study of Homo sapiens with 3 samples.

Results

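The genes described here are 44 that copy DNA or carry cells through mitosis, among 19775 genes named on the arrays. They were taken from a fixed list of names, 20 of DNA replication and its onset and 24 of mitosis, and each was read by whichever of its probe sets was brightest on average. All 44 were found. RNA came from PANC-1, an established human cell line of pancreatic ductal adenocarcinoma, in 3 stably transduced and untreated versions with 1 Affymetrix array each. The control line carried the blank MSCV retroviral vector, the second line expressed wild-type JMJD3 and the third a mutant JMJD3, whose mutation the labels do not name. JMJD3 is the product of KDM6B and removes methyl groups from lysine 27 of histone H3. The sources used here do not state if lines were cloned or pooled, nor how dense and how recently fed the cultures were.

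With 1 array a line no difference has a replicate check, no test was possible and p-values are left out. Precision is limited by the number of arrays. Differences are log2 signal of one array minus another, so that 1 is 2-fold and 0.58 is 1.5-fold. Signals were floored at log2 5.48, the pooled median, and all 44 members lay over that floor in every array, so no fold among them is a lower bound. The only repeat within an array was a gene's other probe sets. Over the 27 members with several measured probe sets, the SD of the difference between those probe sets had a median of 0.17 for wild-type JMJD3 against control, 0.18 for mutant against control and 0.20 for wild-type against mutant. Level differences in bulk RNA cannot tell fewer cells in a phase of the cycle from less RNA per cell.

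Of the whole series, the arrays had median log2 signals of 5.48 to 5.50. KDM6B itself was higher in both JMJD3 arrays by 2 of its 5 probe sets (0.73 and 1.20 with wild-type, 0.49 and 0.92 with mutant JMJD3), and the other 3 differed by 0.11 or less. The brightest, 41387_r_at, was among those 3, at 7.6 in control, 7.66 with wild-type and 7.65 with mutant JMJD3. The 2 that were higher read 6.02 and 5.53 in control, not far over the floor. Of 6 markers of ductal epithelium 5 were over the floor in all arrays, but their levels differed between the lines. KRT19 read 5.55 in control, 8.0 with wild-type and 7.73 with mutant JMJD3, KRT7 was 1.14 higher with wild-type, and with mutant KRT8 was 1.09 lower and EPCAM 0.90 higher. The part of such differences between the lines in the results was not tested. CDH1, the epithelial cadherin, was under it in each, at log2 4.62. No immune or acinar and islet marker was over the floor, of 3 named for each. Of the fibroblast markers 2 of 5 were, and of the endothelial markers 1 of 4. PANC-1 is widely described as having lost CDKN2A, but a pair of probe sets of that gene read over the floor in every array (log2 9.82, 10.32 and 9.95 for 209644_x_at, and 8.69, 9.15 and 9.15 for 207039_at in control, wild-type and mutant), while 211156_at read under it. What those probes bound was not tested.

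Cells copy their genome once in each cycle. In G1, cyclin D and cyclin E kinases free the E2F factors from RB proteins, and E2F drives the genes of replication. CDC6 and CDT1 load the MCM helicase onto origins, and CDC45 and the GINS complex turn it on. Genes of mitosis come on later in the cycle, under B-MYB and FOXM1, acting with the MuvB complex at promoter elements called CHR. Cyclin B and CDK1 then drive entry into mitosis, and CDC20 with the anaphase-promoting complex ends it. In tumours the level of these genes follows the share of dividing cells.

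The replication genes differed little from control with wild-type JMJD3. The median over the 20 was 0.06, beside 0.05 over all 12697 measured genes. There were 13 members above control (65.0%, where 54.4% of all measured genes were higher) and 7 below (35.0%, against 34.3%). CDT1 alone was higher by 1.5-fold, a step passed by 7.15% of all genes, and CCNE2 alone was lower by it, as were 9.08% of all. None reached 2-fold, which 2.26% of all genes did in either direction. For 11 of the 20 the difference was no larger than 0.17, the median SD between probe sets.

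With mutant JMJD3 the replication genes were shifted slightly down. Their median was -0.13, beside 0.00 over 12707 measured genes, and 15 of 20 lay below control and 2 above, where 41.2% of all genes were lower and 45.9% higher. Each difference was small, and for 9 of the 20 it was no larger than 0.18, the median SD between probe sets. None passed 1.5-fold, which 9.51% of all genes passed upward and 3.38% downward, and none was among the 3.52% past 2-fold. The mutant array was the lowest of the arrays for 12 of the 20 and the highest for 0. Among the 12867 genes over the floor in an array it was the lowest for 31.7% and the highest for 30.4%. After quantile normalization 18 of 20 lay below control, but the median of all genes then was -0.03. Members level with control before, such as PCNA, fell below it (-0.03). With each array scaled to one median, 15 lay below and 5 above, where the median of all genes was 0.01. Without probe sets shared with other transcripts, 13 members were left, 9 of them below.

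Set directly against each other, wild-type exceeded mutant JMJD3 for 16 of the 20 replication genes (80.0%), with a median of 0.19, where 49.7% of 12829 measured genes were higher and 40.5% lower. MCM5 was higher by 1.5-fold and CCNE2 lower by it, and for all genes these shares were 11.3% and 15.9%. None of the 20 was past 2-fold, as 8.81% of all genes were. The wild-type array was the highest for 13 of the 20 (65.0%), beside 41.9% of all genes over the floor. This comparison uses the same arrays as the other comparisons and is not a separate observation.

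By role, the 6 subunits of the MCM helicase, the ring that unwinds DNA at the fork, were all lower with mutant JMJD3, by 0.03 to 0.28, as they were after rescaling the arrays. Taking each gene's median probe set, 5 of the 6 were lower. The differences of MCM2 (-0.16), MCM3 (-0.03) and MCM6 (-0.07) were within 0.18, the median SD between probe sets. MCM5 read log2 10.46 in control, 10.83 with wild-type and 10.22 with mutant JMJD3. Wild-type thus exceeded mutant by 0.61, or 1.53-fold, and its other probe set gave 0.60. MCM7 had the same order at 11.63, 11.88 and 11.35, as did MCM2 at 11.77, 11.94 and 11.61. MCM6 did not, with 11.86 in control, 11.48 with wild-type and 11.79 with mutant JMJD3. Its dimmer probe set 238977_at read 5.81, 5.52 and 7.27, so it was 1.46 higher with mutant JMJD3 where the brighter was 0.07 lower.

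Of the factors that load or start the helicase, CDT1 was the exception to the lower mutant values by the brightest probe sets. It read 9.97 in control, 10.56 with wild-type and 10.38 with mutant JMJD3, or 1.51-fold and 1.33-fold over control. Its other probe set, 209832_s_at, put it higher in both JMJD3 arrays too, but by 0.23 with wild-type and 1.08 with mutant. The probe sets therefore differ on which JMJD3 array is higher. CDC6, GINS2 and CDC45 were lower with mutant JMJD3 by 0.25, 0.10 and 0.39, and within 0.12 of control with wild-type, by their brightest probe sets. For GINS2, 243136_at was 0.21 higher with mutant and 1557595_at did not differ. Taking each gene's median probe set, 2 of these factors were lower with mutant JMJD3 and 2 higher.

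The sliding clamp PCNA was nearly level, at 12.28 in control, 12.22 with wild-type and 12.28 with mutant JMJD3. UNG, which removes uracil from DNA, spanned 0.02 over the arrays, and FEN1, which trims Okazaki fragments, 0.28. Of the enzymes of nucleotide supply, RRM2, the regulated subunit of ribonucleotide reductase, was 0.43 lower with mutant and 0.23 lower with wild-type JMJD3. The other RRM2 probe set, 209773_s_at, was 0.52 lower with mutant but 0.08 higher with wild-type. RRM1, the large subunit of the reductase, was 0.42 lower with wild-type and 0.04 lower with mutant. TYMS, which makes thymidylate, was 0.19 higher with wild-type and 0.33 lower with mutant JMJD3. By the brightest probe sets the subunits of the reductase had their larger difference in different arrays, but the other RRM1 probe set was 0.25 lower in both.

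Among the G1 cyclins the pair of cyclin E genes went apart. CCNE1 read 8.68 in control, 9.13 with wild-type and 8.93 with mutant JMJD3, above control in both. CCNE2 read 9.41, 8.65 and 9.33, so the wild-type array was 1.69-fold under control and the mutant array 1.06-fold. The other CCNE2 probe set was lower by 0.37 and 0.33, and with the median over both probe sets the wild-type difference was -0.56, short of 1.5-fold. Cyclin D1, CCND1, read 8.71, 8.86 and 8.43, the same order as MCM5 and MCM7, and its other probe set kept that order at 7.79, 8.12 and 7.44. E2F1 read 8.01, 8.03 and 8.01, while its other probe set read 7.46, 7.75 and 7.09.

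Mitosis genes differed more, and in both directions. With wild-type JMJD3 their median was -0.32, beside 0.05 over all measured genes. Of the 24, 14 lay below control (58.3%, against 34.3% of all genes) and 10 above (41.7%, against 54.4%). There were 7 lower by 1.5-fold or more (29.2%, against 9.08%) and 1 higher (4.17%, against 7.15%). None was past 2-fold, as 2.26% of all genes were. Of the 7984 genes over log2 7.59 in mean signal, as 43 of the 44 members are, 11.3% were lower by 1.5-fold. For 4 of the 24 the difference was within 0.17.

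**Figure D1:**
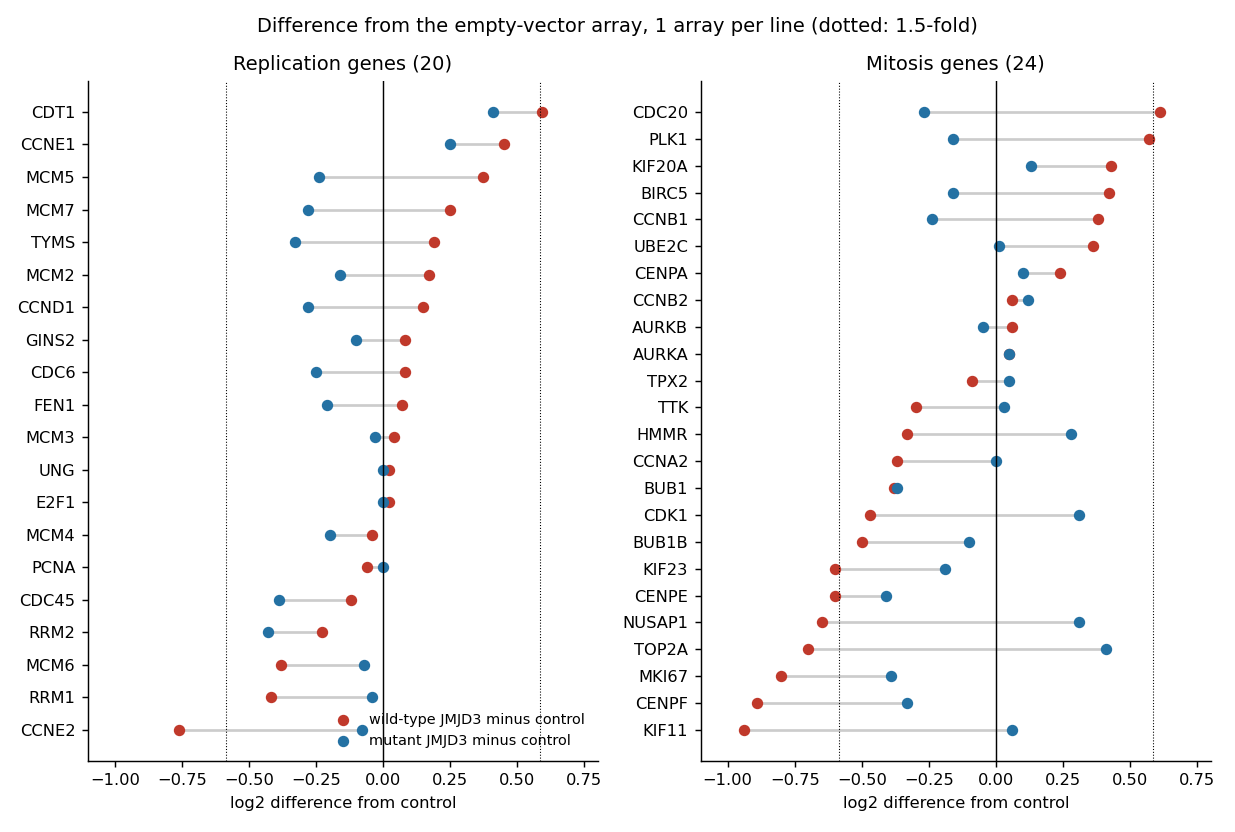
Log2 difference from the control array for each of the 20 replication genes (left) and 24 mitosis genes (right), with wild-type JMJD3 in red and mutant JMJD3 in blue. Dotted lines mark 1.5-fold. Mitosis genes ran from -0.94 (KIF11) to 0.61 (CDC20) with wild-type JMJD3, and from -0.41 to 0.41 with mutant JMJD3.

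KIF11, the kinesin that pushes spindle poles apart, read 10.62 in control, 9.68 with wild-type and 10.68 with mutant JMJD3. It was 1.92-fold under control and 2.0-fold under mutant in the wild-type array. KIF11 has a single probe set. KIF23, a kinesin of the midzone of the dividing cell, read 10.02, 9.42 and 9.83, and its other probe set was also lower with wild-type JMJD3, by 0.85. That probe set was 1.04 lower with mutant, which puts the mutant array lowest. KIF20A, which carries the chromosomal passenger complex to the midzone, went the other way at 10.03, 10.46 and 10.16. Among the members named KIF, KIF11 and KIF23 were thus lower with wild-type JMJD3 and KIF20A higher. CENPE, also a kinesin, was 0.60 lower.

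NUSAP1, which bundles spindle microtubules, read 11.92 in control, 11.27 with wild-type and 12.23 with mutant JMJD3. HMMR, a receptor for hyaluronan that also sits on the spindle, read 10.83, 10.50 and 11.11. Both had the wild-type array lowest and the mutant array highest, and the other probe set of each kept that order. TPX2, which activates Aurora A on the spindle, spanned only 0.14.

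TOP2A, the topoisomerase that untangles sister chromatids, read 11.34 in control, 10.64 with wild-type and 11.75 with mutant JMJD3. Wild-type was 1.62-fold under control and 2.16-fold under mutant, and by the other measured probe set it was lower by 1.11 and 1.26. MKI67, the proliferation marker Ki-67 that coats mitotic chromosomes, read 9.51, 8.71 and 9.12. All 3 other MKI67 probe sets were lower with wild-type JMJD3, by 0.56 to 0.79, and lower with mutant, by 0.29 to 0.80. For 212021_s_at and 212022_s_at the JMJD3 arrays were 0.03 and 0.01 apart, against 0.41 for the brightest probe set.

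CENPF, a large kinetochore protein, read 10.83 in control, 9.94 with wild-type and 10.50 with mutant JMJD3, or 1.85-fold and 1.26-fold lower. Its other measured probe set was lower by 0.37 with wild-type JMJD3 and 0.03 higher with mutant. CENPE, a kinetochore motor, read 9.19, 8.59 and 8.78 on a single probe set. CENPA, the histone H3 variant of centromeres, was a little over control at 9.28, 9.52 and 9.38.

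**Figure D2:**
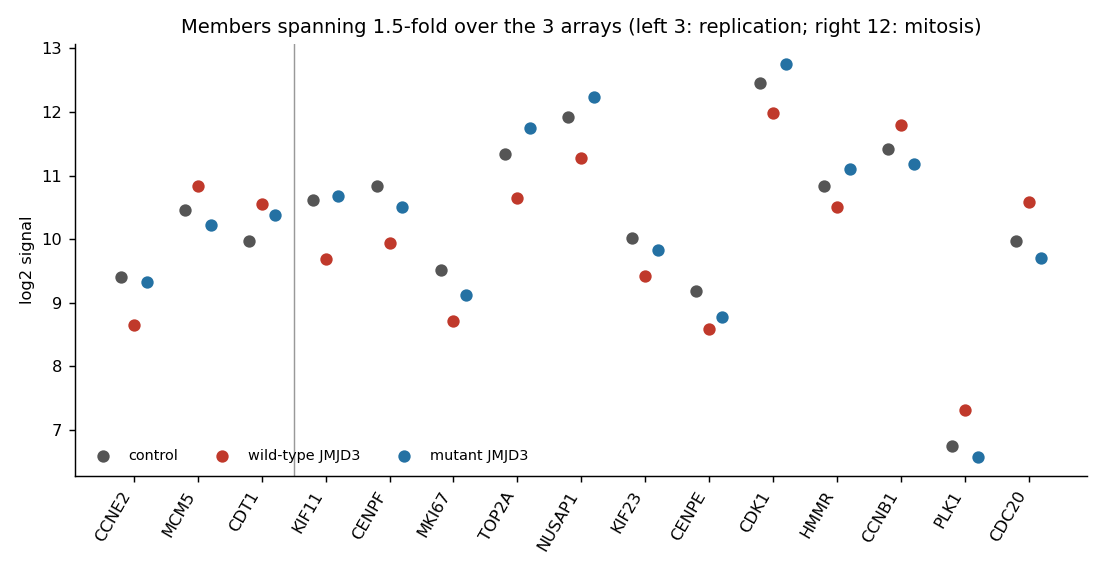
Log2 signal in each of the 3 arrays for the 15 members that spanned 1.5-fold or more over the arrays, 3 of replication (left of the line) and 12 of mitosis (right). Each point is 1 array, so there are no error bars. From KIF11 to HMMR the wild-type array (red) is the lowest, and for CCNB1, PLK1 and CDC20 it is the highest.

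Mitosis genes above control with wild-type JMJD3 were led by CDC20 and PLK1. CDC20, which directs the anaphase-promoting complex to its first targets, read 9.97 in control, 10.58 with wild-type and 9.70 with mutant JMJD3. The wild-type array exceeded control 1.53-fold and mutant 1.84-fold. PLK1, a kinase of mitotic entry and spindle assembly, read 6.74, 7.31 and 6.58, just short of 1.5-fold against control (0.57) and past it against mutant (0.73). UBE2C, the conjugating enzyme of the same complex, read 11.26, 11.62 and 11.27. The wild-type array was the highest for all of these.

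BIRC5, survivin of the chromosomal passenger complex, read 11.03, 11.45 and 10.87. Its 3 other probe sets were higher with wild-type JMJD3 by 0.45 to 0.87. CCNB1, cyclin B1, read 11.42, 11.80 and 11.18, but the mutant side depended on the probe set, since 228729_at read 9.52, 10.12 and 10.02. Wild-type over mutant was 0.62 by the brighter and 0.10 by the dimmer. CCNB2, its close relative, spanned 0.12. Of the dimmer CCNB2 probe sets, 232768_at was 0.55 lower with wild-type and 232764_at 0.11 higher.

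CDK1, the kinase partner of cyclin B, read 12.45 in control, 11.98 with wild-type and 12.76 with mutant JMJD3. Both bright other probe sets were lower with wild-type JMJD3 as well, by 0.62 and 0.53, and within 0.11 of control with mutant. CCNA2, cyclin A2, was 0.37 lower with wild-type, but 0.04 higher by its other probe set. The checkpoint kinases BUB1B and TTK and the kinase BUB1 were lower with wild-type JMJD3 by 0.50, 0.30 and 0.38, and the Aurora kinases AURKA and AURKB were within 0.06 of control in both JMJD3 arrays. Cyclin B1 and its kinase partner therefore differed from control in opposite directions in both JMJD3 arrays by their brightest probe sets.

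With mutant JMJD3 the mitosis genes were centred on control. Their median was 0.01 (-0.01 after quantile normalization) beside 0.00 over all genes, and 12 lay above and 11 below. None passed 1.5-fold, which 9.51% of all genes passed upward and 3.38% downward. TOP2A (0.41), CDK1 and NUSAP1 (0.31 each) and HMMR (0.28) were the highest, and CENPE (-0.41), MKI67 (-0.39), BUB1 (-0.37) and CENPF (-0.33) the lowest. The other probe sets agreed poorly here, with 9 of 20 going the way of the brightest and 9 the opposite way.

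Against mutant, wild-type JMJD3 was lower for 15 of the 24 mitosis genes (62.5%, against 40.5% of all genes) and higher for 8, with a median of -0.17. There were 5 lower by 1.5-fold (TOP2A, KIF11, NUSAP1, CDK1 and HMMR) and 3 higher (CDC20, PLK1 and CCNB1). These are 20.8% and 12.5% of the class, near the 15.9% and 11.3% of all genes. TOP2A and KIF11 were 2-fold lower, and 8.81% of all genes were past 2-fold in either direction. Taking each gene's median probe set in place of the brightest gave a class median of 0.02, the opposite sign. The wild-type array was the lowest of the arrays for 14 of the 24, or 58.3%, beside 28.1% of all genes over the floor, and the highest for 8.

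**Figure D3:**
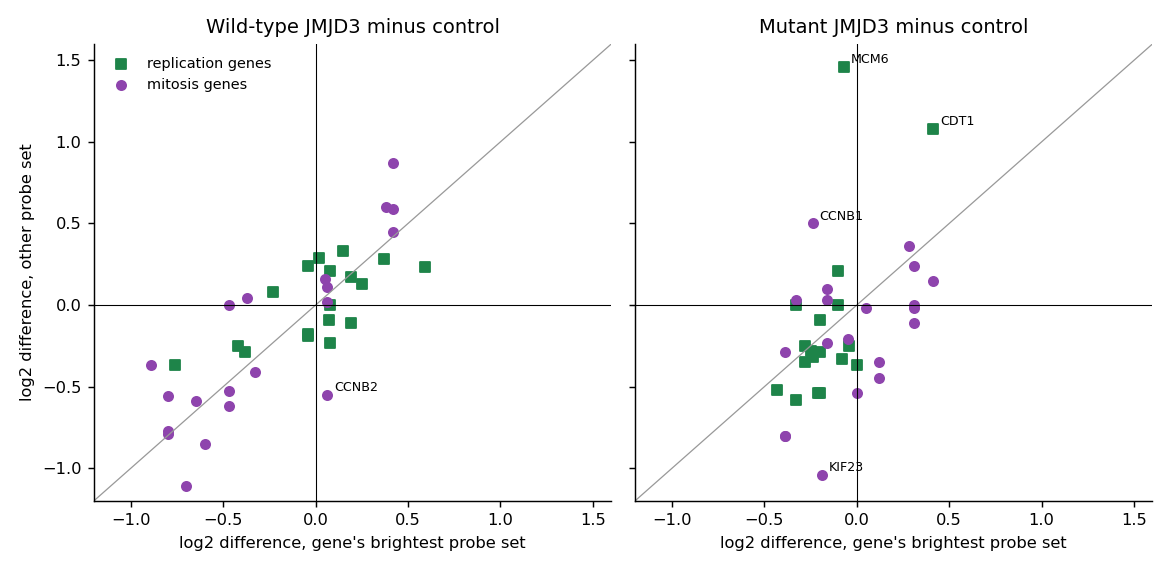
Log2 difference from control by each other measured probe set of a member (vertical axis) against that of its brightest probe set (horizontal axis), for wild-type (left) and mutant JMJD3 (right). The line marks equal differences. For wild-type JMJD3, 17 of 20 other probe sets of mitosis genes and 12 of 18 of replication genes went the same way; labels name those at least 0.6 apart.

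For wild-type against control, 17 of the 20 other probe sets of mitosis genes lay on the side of the brightest and 2 on the opposite side. Of the members past 1.5-fold, KIF11, CENPE and CDC20 have a single probe set. All 7 other probe sets of the rest (MKI67, TOP2A, KIF23, CENPF and NUSAP1) went the same way. For the replication genes 12 of 18 did and 5 were opposite. The small replication differences are thus near what separates probe sets of the same gene, while for mutant JMJD3 13 of 18 went the same way and 2 the opposite way.

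Longer members tended to lie lower with wild-type JMJD3. Genomic span here is the length of the gene with its introns in the RefSeq table of assembly GRCh38.p14. Over the 24 mitosis genes the Spearman correlation of span with the wild-type difference from control was -0.72, and over the 20 replication genes it was -0.42. Over 12686 measured genes it was -0.31, so the relation is not particular to these genes. These are descriptions across genes read on the same arrays. Span was looked at after the values were seen.

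With all measured genes divided by span into 5 equal groups, the median wild-type difference went from 0.17 for the shortest (up to 8.29 kb) over 0.14, 0.07 and 0.00 to -0.07 for the longest (from 85.0 kb). Mitosis genes spread further. The 6 in the group from 8.29 to 19.4 kb, KIF20A, CENPA, CCNB1, CDK1, PLK1 and BIRC5, had a median of 0.40. The 7 from there to 39.1 kb had -0.33, and the 6 up to 85.0 kb, KIF11, CENPF, BUB1, BUB1B, TPX2 and NUSAP1, had -0.58. CDC20 spans 4.22 kb, KIF11 62.3 kb and CENPE 92.5 kb. CCNE2, at 16.5 kb, was low for its span, and MCM5, at 54.9 kb, high.

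With mutant JMJD3 the median of all genes was 0.00 in every span group, and the correlation was -0.08 over the mitosis genes, -0.38 over the replication genes and 0.03 over all. After subtracting the median of all genes in the same span group, the mitosis median for wild-type against control was -0.38 and 7 members were lower by 1.5-fold and 0 higher, while the replication median was -0.08. Transcript length and RNA quality were not among the measurements, and the part of gene length in these differences was not tested beyond those values.

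**Figure D4:**
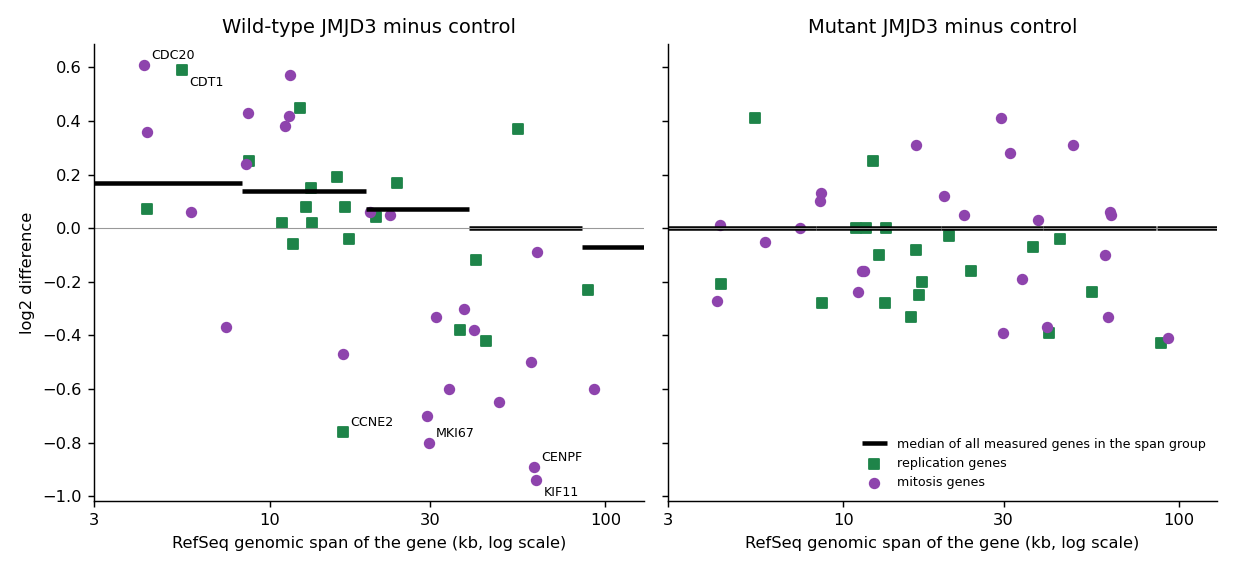
Log2 difference from control against genomic span in kb (log scale) for replication genes (green squares) and mitosis genes (purple circles), wild-type JMJD3 left and mutant right. Black bars give the median of all measured genes in each of 5 span groups, drawn within the plotted range. Short members such as CDC20 and CDT1 lie above 0 and long ones such as KIF11 and CENPF below it on the left. Exceptions there include CCNA2 (7.44 kb) and CCNE2 (16.5 kb) below 0 and MCM5 (54.9 kb) above it. On the right the Spearman correlation was -0.08 over the mitosis genes and -0.38 over the replication genes.

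Promoters are shown because the classes are known for different elements. RefSeq promoters (GRCh38.p14) matched 35 of the 44 members, 16 of replication and 19 of mitosis, and the 250 bases before the first listed start were searched on both strands. Not listed were MCM4, MCM5, CCNE2, CCND1, AURKA, TTK, TPX2, BIRC5 and UBE2C. The E2F motif, taken as TTTCCCGC, TTTCGCGC, TTTGCCGC or TTTGGCGC, was in 8 of 16 replication promoters and 2 of 19 mitosis promoters, beside 2.79% of 27305 promoters of the same length. The CHR motif TTTGAA was in 11 of 19 mitosis promoters (57.9%) and 1 of 16 replication promoters, beside 13.6%. CCAAT was in 17 of 19 and 10 of 16, beside 33.0%. A match is a description of letters and not of a bound site.

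For replication, the motif-bearing members with the largest wild-type differences were CDT1 (chr16:88803539-88803788, plus strand) and MCM6 (chr2:135876444-135876693, minus strand). They differed from control in opposite directions, CDT1 by 0.59 and MCM6 by -0.38. Capitals mark matches to the E2F motif and, in MCM6, CCAAT, which reads ATTGG on the other strand. In MCM6 the stretch tttggcgcgaaa holds overlapping E2F matches on both strands, and it occurs at 2 places.
CDT1: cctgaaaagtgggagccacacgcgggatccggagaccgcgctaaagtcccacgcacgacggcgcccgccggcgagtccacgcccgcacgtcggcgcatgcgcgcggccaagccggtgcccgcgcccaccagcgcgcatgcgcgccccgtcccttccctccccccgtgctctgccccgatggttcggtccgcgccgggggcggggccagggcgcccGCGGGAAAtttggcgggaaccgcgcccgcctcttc
MCM6: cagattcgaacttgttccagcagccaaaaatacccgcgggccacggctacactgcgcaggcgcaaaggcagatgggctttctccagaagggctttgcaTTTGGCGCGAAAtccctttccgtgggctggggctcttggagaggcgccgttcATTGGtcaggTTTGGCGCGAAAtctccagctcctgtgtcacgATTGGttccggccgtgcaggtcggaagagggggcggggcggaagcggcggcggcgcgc

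For mitosis the same rule gave KIF11 (chr10:92592880-92593129, plus strand) and MKI67 (chr10:128126424-128126673, minus strand), both lower with wild-type JMJD3. CDC20 (chr1:43358731-43358980, plus strand) was added after its values were seen, because it was higher. Capitals mark the CHR motif, which reads TTCAAA on the other strand, and CCAAT. All 3 hold a CHR match, at 28 bases before the start in KIF11, at 29 and 47 in MKI67 and at 65 and 178 in CDC20.
KIF11: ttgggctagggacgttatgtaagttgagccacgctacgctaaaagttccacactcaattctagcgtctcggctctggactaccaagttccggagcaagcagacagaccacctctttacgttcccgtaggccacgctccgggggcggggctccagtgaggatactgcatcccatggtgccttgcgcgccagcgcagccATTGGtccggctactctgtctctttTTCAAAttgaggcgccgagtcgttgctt
MKI67: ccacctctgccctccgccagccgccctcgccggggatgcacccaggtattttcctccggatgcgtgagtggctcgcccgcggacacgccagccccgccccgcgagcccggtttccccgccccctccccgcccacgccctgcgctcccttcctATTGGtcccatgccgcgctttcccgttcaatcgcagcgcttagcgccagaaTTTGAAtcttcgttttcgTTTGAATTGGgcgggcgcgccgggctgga
CDC20: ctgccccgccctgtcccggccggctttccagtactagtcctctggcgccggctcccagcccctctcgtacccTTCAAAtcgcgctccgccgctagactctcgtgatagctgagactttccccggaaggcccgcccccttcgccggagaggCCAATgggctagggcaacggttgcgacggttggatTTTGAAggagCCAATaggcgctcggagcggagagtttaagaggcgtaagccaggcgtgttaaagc

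Members with a motif were found on both sides of control. Of the 11 mitosis genes with a CHR match, 7 were lower and 4 higher with wild-type JMJD3, with a median of -0.47, and the median of the other 8 was -0.38. Against mutant JMJD3 these medians were -0.41 and -0.10. Replication genes with and without an E2F match had medians of 0.06 and 0.05 with wild-type JMJD3, and those with and without CCAAT -0.02 and 0.18.

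Other genes of the cell cycle were taken from 9 lists of 183 genes, of which 176 were measured. With wild-type JMJD3 38 were lower by 1.5-fold and 5 higher, where 9.08% of all genes were lower and 7.15% higher by that step, and their median was -0.08. With mutant JMJD3 5 were lower and 5 higher, with a median of -0.01, where 3.38% and 9.51% of all genes were. The lists differed among themselves with wild-type JMJD3. Origin recognition, condensin and cohesin, and kinesin and spindle genes had medians of -0.35, -0.38 and -0.23, and the other 6 lists lay between -0.06 and 0.10.

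Origin recognition and initiation genes had a median of -0.35 with wild-type JMJD3. There were 15 of 20 lower (against 34.3% of all genes) and 7 lower by 1.5-fold (against 9.08%). MCM8, a helicase relative, read 8.23 in control, 7.06 with wild-type and 8.0 with mutant JMJD3. CDC7, the kinase that fires origins, read 9.11, 8.38 and 9.51. The MCM subunits had a median of 0.11, which was -0.07 over the 4 left without shared probe sets. Polymerases and fork factors were centred near 0 (median 0.05, with 3 of 28 lower by 1.5-fold and 2 higher), and POLA1, the catalytic subunit of the priming polymerase, was 1.91-fold lower. The 10 measured genes of nucleotide synthesis had a median of 0.10 and none past 1.5-fold.

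Condensin and cohesin genes had a median of -0.38 with wild-type JMJD3 and 6 of 19 lower by 1.5-fold, as were 9.08% of all genes. SMC2, a condensin core subunit, was 2.22-fold lower at 9.95, 8.80 and 9.36 in control, wild-type and mutant, and SMC3, a cohesin core subunit, 2.06-fold lower at 11.72, 10.68 and 11.80. Of kinetochore and checkpoint genes 6 of 24 were lower by 1.5-fold, led by CENPU (2.35-fold), and PMF1 was 1.72-fold higher. Of kinesins, spindle and cytokinesis genes 16 of 24 were lower, against 34.3% of all genes. There were 7 lower by 1.5-fold, led by KIF15 (1.84-fold), ASPM (1.79-fold), a spindle pole protein, and ECT2 (1.78-fold), which starts the cleavage furrow. The anaphase-promoting complex and genes of mitotic entry or exit had a median of 0.02, with 4 of 22 lower by 1.5-fold, including FBXO5, an inhibitor of that complex, at 1.67-fold.

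**Figure D5:**
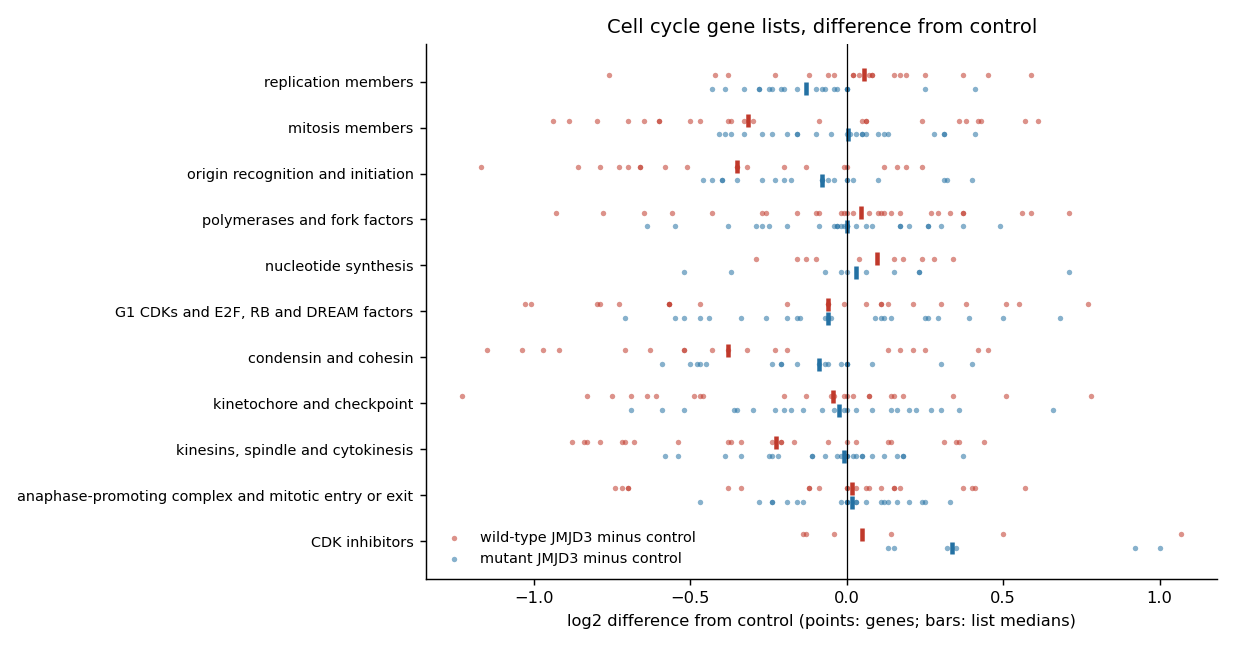
Log2 difference from control of each gene (points) in the replication and mitosis classes and 9 further cell cycle lists, wild-type JMJD3 in red and mutant in blue, with bars at the medians. The lowest wild-type medians are those of condensin and cohesin (-0.38) and of origin recognition (-0.35).

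Among the regulators, CCND3, cyclin D3, read 10.96 in control, 11.73 with wild-type and 10.25 with mutant JMJD3, so wild-type exceeded mutant 2.79-fold. Its dimmer probe set 1562028_at read 5.78, 5.66 and 5.28. RBL1, the RB relative p107, read 8.47, 7.44 and 8.59, and RB1 10.93, 10.13 and 11.04. MYBL1, or A-MYB, read 9.14, 8.13 and 9.53, while its probe set 231268_at went the opposite way at 6.15, 6.42 and 5.92. FOXM1 (10.12, 10.50 and 9.57) and MYBL2, which encodes B-MYB (9.74, 10.04 and 9.30), were named after their values were seen. Both had the wild-type array highest and the mutant lowest. By the brightest probe sets that was the order of CDC20, PLK1, CCNB1 and BIRC5 and the reverse of TOP2A, CDK1, NUSAP1 and HMMR. Some other probe sets of CCNB1, BIRC5 and CDK1 did not keep these orders. BIRC5 202094_at read 8.56, 9.43 and 8.59, and CDK1 210559_s_at read 11.58, 11.05 and 11.56. The other measured probe sets of TOP2A, NUSAP1 and HMMR kept theirs.

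Of 7 named CDK inhibitors 6 were measured, and all 6 lay over control with mutant JMJD3, with a median of 0.34, where 45.9% of all genes were higher. They include CDKN2A, whose signal is in doubt as described above, and CDKN2B, which is near the floor in control. CDKN3, which encodes a phosphatase, was counted among them, at 0.35. CDKN1C, or p57, read 8.41 in control, 9.48 with wild-type and 9.33 with mutant JMJD3, higher in both. CDKN2B, or p15, was at or near the floor in control and wild-type (5.52 and 5.37) and at 6.52 with mutant, 2.0-fold over control. Its other probe set, 207530_s_at, read under the floor in every array, at 4.48, 4.67 and 4.48. CDKN1A, or p21, read 8.93, 9.07 and 9.08.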

How the data were processed

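RNA from 3 PANC-1 lines was hybridised to 1 array each. The authors deposited log2 signals for 54613 probe sets, from 2.42 to 14.94; the submitters' processing notes name MAS5, and how arrays were normalized against each other is not stated in the sources used here. Of these, 21.0% held the same value in all arrays, as did 6 of the members' 91 probe sets, so a difference of 0 does not show equal levels. The platform annotation gave 41091 probe sets 1 gene symbol (1801 several, 11721 unlisted), and 19 members were read by shared probe sets (_s_at or _x_at).

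A gene was measured where either array was over the floor. Classes were described by counts at 1.5-fold and 2-fold and medians, beside all measured genes. The rule gives values for members past 1.5-fold between any arrays and for CCND1, E2F1, MKI67, PCNA, TOP2A and CDK1, up to 3 genes of each further list, and 2 promoters a class; other members are given by role. RB1, ASPM and CDKN1A, like FOXM1 and MYBL2, were named outside this rule. Members and lists were chosen with earlier results of these data known. Scaling, floor and probe set choices were varied in 7 ways, and a correction for span was added after seeing the data. The calculation was tested on simulated data. Python 3.11.15, numpy 2.4.6, pandas 2.3.3, scipy 1.17.1 and matplotlib 3.10.9 were used.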

Additional observations from a re-analysis of the deposited data

How the results depend on the processing

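No paired analysis was possible because each group has 1 array. Of 96 class medians and counts recomputed under 8 alternatives, 81 kept within the median SD between probe sets divided by the root of the number of members (medians) or within 1.5 times (counts). Taking the median probe set of each gene, the replication median for wild-type against control was 0.10 and 0 members passed 1.5-fold. The mitosis median was -0.17, and for wild-type against mutant it was 0.02. For mutant against control 2 members of each class passed 1.5-fold. Both replication members were higher with mutant JMJD3, against the direction of their class median (-0.17), and both mitosis members were lower. Without shared probe sets, the replication median for mutant against control was -0.08, 1 replication member passed 1.5-fold for wild-type against control and 1 mitosis member for mutant against control. With an offset instead of a floor 1 replication member passed for wild-type against control. The added alternative, which subtracts the median of genes of like span, left 1 replication member past 1.5-fold with a median of -0.08 for wild-type against control, and a mitosis median of -0.38; for wild-type against mutant the medians were 0.08 and -0.10. The other causes were not tested.

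The 265 recomputed values of single members include some not past 1.5-fold at the start, such as PCNA and E2F1, which could not fall under it. While past 1.5-fold 0 changed sign, and 17 fell under it, 6 of these among the 34 with the median over probe sets. With wild-type against control these were CDT1 (0.41 to 0.57 under 3 alternatives), CCNE2 (-0.56) and CENPF (-0.37) with the median over probe sets, KIF23 and CENPE when arrays were scaled to one median (-0.58 each) or offset (-0.57 and -0.55), CENPE (-0.53) and CDC20 (0.44) after the span correction. With wild-type against mutant they were CCNE2 (-0.36), CDK1 (-0.51) and CCNB1 (0.36) with the median over probe sets, CCNB1 without shared probe sets (0.10) and after the span correction (0.51), and PLK1 with the offset (0.54). Floors at the 40th and 60th percentile moved no member.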

Other observations

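Promoter base composition ran with the mutant JMJD3 differences of the mitosis genes. Over the 19 with a listed promoter, the Spearman correlation of the GC content of the 250 bases before the start with the difference from control was -0.79. CDK1 (44.4% GC), NUSAP1 (49.2%), TOP2A (53.2%) and HMMR (53.6%) were higher with mutant JMJD3, by 0.28 to 0.41, and MKI67 (68.4%), BUB1 (67.6%) and CCNB1 (65.6%) were lower, by 0.39, 0.37 and 0.24. CENPF (52.8%) went against the order, at 0.33 lower. Over 10261 measured genes the correlation was 0.02, over the 16 replication genes 0.20, and for wild-type JMJD3 over the same 19 it was 0.14. It was 0.46 over the 19 for wild-type against mutant, and 0.54 over the 16 replication genes for wild-type against control. The relation was noticed in these data among 18 correlations of span or promoter GC, has no test, and rests on probe sets that agreed poorly for mutant JMJD3, such as those of CCNB1.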
